A study of Mus musculus with 26 samples.

Results

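The libraries described here are of conventional CD4 T cells (Tconv; CD4+Foxp3-) of icKO mice, compared between the central nervous system (CNS) and the draining lymph nodes (dLN). Cells were taken at day 14 of EAE (experimental autoimmune encephalomyelitis). In this mouse model of multiple sclerosis, primed T cells enter the CNS. The libraries were chosen by their labels and make up 7 of the 26 samples of the series, 4 from the CNS and 3 from the dLN. All mice were C57BL/6, had active EAE and received tamoxifen from day 7 to day 14. The icKO mice carried Foxp3Cre-ERT2 and Tnfrsf1bFlox/Flox, and the control mice (Ctrl) carried Foxp3Cre-ERT2 alone. Cre is driven from the Foxp3 locus, so the floxed gene, Tnfrsf1b, is meant to be lost in Foxp3-positive regulatory T cells (Treg) after tamoxifen and not in the Tconv cells sequenced here. Tnfrsf1b encodes TNFR2, a receptor for TNF. Ctrl Tconv cells (4 CNS and 3 dLN libraries) and icKO Treg cells (3 and 3) served as comparisons. The titles call each sample a mouse replicate but do not say whether cells of several mice were pooled, and the p-values measure the spread between these samples.

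T cells recirculate through lymph nodes by means of adhesion receptors and the chemokine receptor CCR7, and leave them through sphingosine-1-phosphate receptors. After priming, effector helper cells lose much of this programme, gain receptors for inflammatory chemokines and cytokines and can enter inflamed tissue. In EAE, CNS-infiltrating CD4 T cells are known for the cytokines interferon gamma, GM-CSF and IL-17A. IL-2 and other common gamma chain cytokines act on T cells through STAT5, which induces the feedback inhibitors CIS and SOCS2, and hypoxia-inducible factor 1 alpha induces genes of glycolysis.

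Beyond the tissue, some properties of the libraries bear on the results. The library labelled dLN icKO replicate 3 held 7.78 M counts over 6005 genes, against 13.3 to 18.0 M counts and 12661 to 13236 genes in the other 6 libraries, and was left out, so the dLN group has 2 libraries. The file names of CNS icKO replicates 2, 3 and 4 and of 2 CNS Ctrl libraries carry codes that disagree with their labels. The labels were followed here, and results are also given without those 5 libraries. Rank correlations over genes were 0.978 to 0.984 among the 4 CNS libraries, 0.984 between the 2 dLN libraries and 0.936 to 0.953 between tissues. The defining CD4 T cell markers summed to 5975 to 6238 CPM in CNS and 5940 to 5988 CPM in dLN libraries, with 0 of 8 markers called. Foxp3 had 0.114, 0.397, 0.338 and 0.341 CPM in the CNS libraries and 0.574 and 0.742 CPM in the dLN libraries, a log2 fold change of -1.14 ± 0.60 (SE; adjusted p = 0.226).

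Across 13500 genes tested with edgeR's quasi-likelihood method, 1905 differed between CNS and dLN at a Benjamini-Hochberg adjusted p under 0.05 (14.1%), 1055 higher in the CNS (7.81%) and 850 lower (6.3%). Of these, 1120 (8.3%) differed at least 2-fold. The libraries of the 2 tissues did not overlap, with the CNS higher, for 2711 genes (20.1%), and with the CNS lower for 2947 (21.8%). Levels below are CPM, expected counts scaled to a common library total with TMM factors, listed by replicate, and folds are on the log2 scale, CNS minus dLN, with a median of 0 over all genes tested. Leaving out single libraries gave 411 to 972 genes higher and 321 to 747 lower, with the fewest without dLN replicate 1. Of the 134 called genes named in this comparison, 92 were called in each of the 6 fits that leave out a library, and the others are given with their values. With the left-out dLN library included, 541 genes were higher and 665 lower. Without the 5 libraries with disagreeing file names, which leaves CNS replicate 1 as the single CNS icKO library with its spread taken from the other groups, 438 genes were higher and 210 lower, and 98 of the 134 were called.

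The targeted gene was measured first. Tnfrsf1b (chromosome 4, 145213463 to 145246870, GRCm38, minus strand) had 358, 269, 389.8 and 356 CPM in the CNS libraries and 126 and 134 CPM in the dLN libraries, a log2 fold change of 1.402 ± 0.19 (SE; adjusted p = 2.44e-05). All 4 CNS libraries lay above both dLN libraries, as for 20.1% of all genes tested. In Ctrl Tconv cells the gene had 229, 176, 199 and 229 CPM in the CNS and 126, 132 and 113 CPM in the dLN, a log2 fold change of 0.75 ± 0.16. The difference between the genotypes in this tissue change was 0.65 ± 0.24 (SE; adjusted p = 0.447), which did not pass the test. In Treg cells, the intended target, Tnfrsf1b had 510, 357 and 352 CPM in CNS icKO and 454, 711 and 664 CPM in CNS Ctrl libraries, which overlap. In the dLN it had 619.8, 619.5 and 617.6 CPM in icKO and 793, 736 and 857 CPM in Ctrl Treg libraries, where every icKO library lay below every Ctrl library. The transcript was thus still present in icKO Treg cells, and counts per gene do not separate the floxed part from the rest, so they do not show how much of the gene was deleted.

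Ccr7 and Cxcr5, which guide T cells into and within lymphoid organs, were lower in the CNS. Ccr7 (chromosome 11, 99144196 to 99155077, minus strand), the receptor for the lymph node chemokines CCL19 and CCL21, had 157, 325, 105 and 140.5 CPM in the CNS libraries and 1151 and 1086 CPM in the dLN libraries. Every CNS library lay far below both dLN libraries, with a log2 fold change of -2.62 ± 0.28 (SE; adjusted p = 2.53e-06). Cxcr5, the receptor that guides cells to B cell follicles, had 8.68, 6.49, 3.99 and 9.29 CPM in the CNS libraries and 64.9 and 114 CPM in the dLN libraries, a log2 fold change of -3.65 ± 0.38 (SE; adjusted p = 1.88e-06). Of 11 tested genes of the homing and egress list, 4 fell and 2 rose, with a median of -0.06. Over all genes 6.3% fell and 7.81% rose. St8sia6, a sialyltransferase gene of the list, had 11.9, 8.94, 5.61 and 13.3 CPM in the CNS libraries and 121 and 81.4 CPM in the dLN libraries (log2 fold change -3.34 ± 0.40 SE, adjusted p = 8.06e-06). S1pr1, the main egress receptor, had 638, 604, 538 and 677 CPM in the CNS libraries and 768 and 694 CPM in the dLN libraries and did not pass (adjusted p = 0.344). Without dLN replicate 1, 4 members fell and 0 rose.

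The naive and central T cell list moved in 1 direction. Of its 24 tested members 17 fell and 0 rose, with a median of -1.41, against 6.3% of all genes that fell. This list, like the others, was written with earlier results of these data known, so its count is a description. Foxp1 (chromosome 6, 98925338 to 99522721, minus strand), a transcription factor that holds naive T cells in quiescence, had 103, 121, 84.1 and 114 CPM in the CNS libraries and 291 and 289 CPM in the dLN libraries, a log2 fold change of -1.46 ± 0.16 (SE; adjusted p = 2.39e-06). Lef1 and Tcf7, the HMG-box factors of naive and memory T cells, had log2 fold changes of -1.28 and -1.37. Bach2, a repressor of effector genes, had 23.4, 19.8, 11.5 and 22.8 CPM in the CNS libraries and 124 and 84.5 CPM in the dLN libraries, and Id3, an inhibitor of E proteins, had 6.796, 6.42, 12.3 and 10.996 CPM in the CNS libraries and 66.0 and 64.5 CPM in the dLN libraries. Neither gene's libraries overlapped between the tissues, which held with the CNS lower for 21.8% of all genes tested. Actn1, which encodes an alpha-actinin, fell by 2.95 on the log2 scale, and Ly6c1 had 31.2, 74.5, 36.2 and 31.6 CPM in the CNS libraries and 261 and 272 CPM in the dLN libraries. Igfbp4, which encodes an insulin-like growth factor binding protein, had 92.9, 123, 22.0 and 65.8 CPM in the CNS libraries and 1466 and 1171 CPM in the dLN libraries. It was among the 10 largest falls (log2 fold change -4.12 ± 0.61 SE, adjusted p = 8.67e-05) and among the genes that differed most between the 4 CNS libraries. Leaving out dLN replicate 1 left 15 members lower, and leaving out the libraries with disagreeing file names left 10, with Tcf7 at -1.17 (adjusted p = 0.0955).

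**Figure D1:**
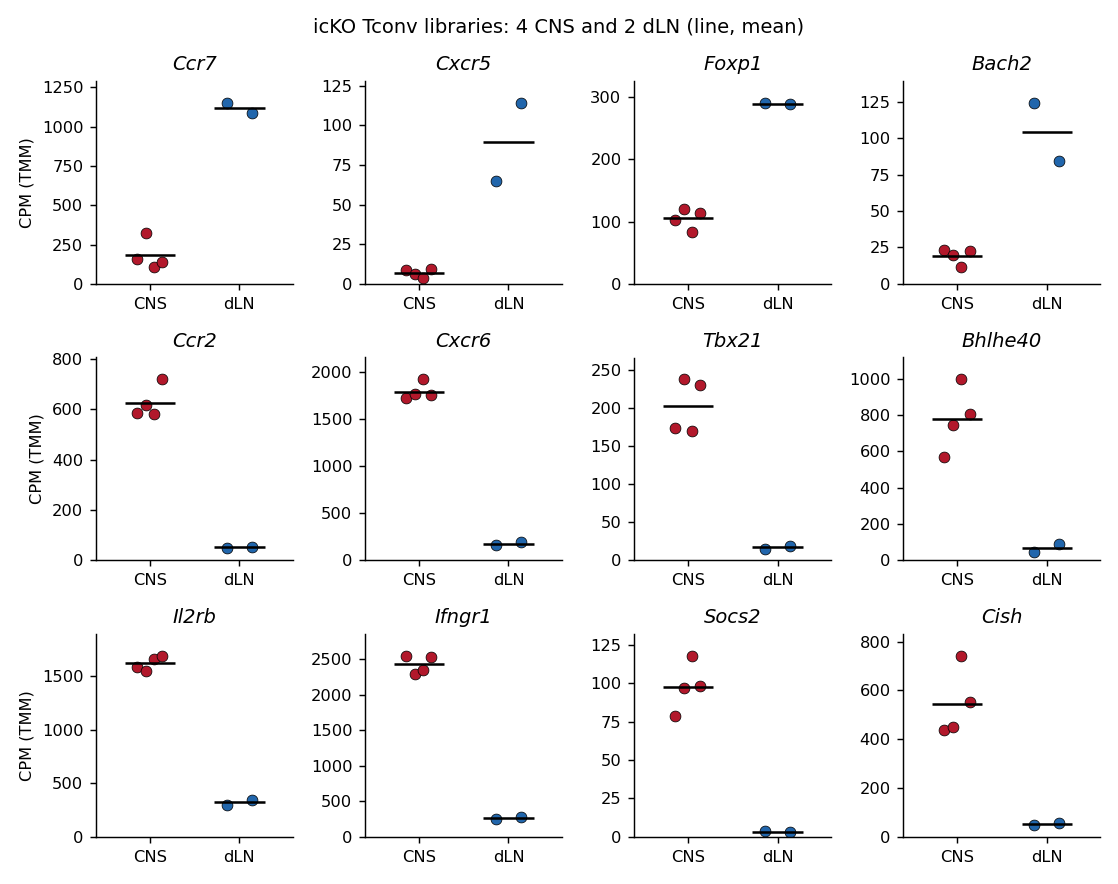
CPM (linear axis from 0) of 12 genes in the 4 CNS and 2 dLN libraries of icKO Tconv cells; points are libraries and lines group means. Ccr7, Cxcr5, Foxp1 and Bach2 are lower and the other 8 genes higher in every CNS library than in either dLN library. Of all genes tested, 21.8% were lower and 20.1% higher in this way.

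Receptors for inflammatory chemokines were higher in the CNS. Of 14 tested members 9 rose and 0 fell, with a median of 2.75. Cxcr6 (chromosome 9, 123806475 to 123811760, plus strand), the receptor of CXCL16, had 1724, 1774, 1927 and 1759 CPM in the CNS libraries and 163 and 197 CPM in the dLN libraries. Ccr2 (chromosome 9, 124101950 to 124113557, plus strand), the receptor of CCL2, had 586, 616, 581 and 719.8 CPM in the CNS libraries and 50.4 and 53.8 CPM in the dLN libraries, and the log2 fold changes of the 2 genes were 3.32 ± 0.37 (SE; adjusted p = 3.57e-06) and 3.59 ± 0.34 (SE; adjusted p = 5.52e-07). The 4 CNS values of each gene lay close together and far above both dLN values. Cxcr3, the receptor of interferon-induced CXCL9 and CXCL10, had 614, 680.3, 615 and 809.9 CPM in the CNS libraries and 52.1 and 90.3 CPM in the dLN libraries. On the scale of TPM, which divides by gene length, Cxcr6 had the highest mean of these receptors in the CNS at 1589.9 TPM, ahead of Cxcr3 at 722 and Ccr2 at 281 TPM. Ccr8 rose by 2.14 on the log2 scale, with CNS values of 106, 52.0, 78.4 and 30.5 CPM and dLN values of 16.4 and 13.7 CPM, and missed the threshold with either dLN library left out (adjusted p = 0.075 and 0.0938). Xcr1, the receptor of XCL1, had 12.7, 11.98, 16.6 and 12.8 CPM in the CNS libraries and 1.36 and 2.22 CPM in the dLN libraries (log2 fold change 2.91 ± 0.64 SE, adjusted p = 0.00318), and missed the threshold without dLN replicate 1 (adjusted p = 0.0907), where 6 members of the list rose. Xcr1 is also 1 of 6 dendritic cell markers, and it alone of them was called. With Xcr1 included, these markers summed to 22.4 to 34.8 CPM of the total in CNS and 14.3 to 21.7 CPM in dLN libraries. Which cells the Xcr1 transcripts came from was not tested.

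Among chemokine ligands, 4 of 23 rose and 1 fell, beside 7.81% and 6.3% of all genes. The median was 1.55, or 1.32 with genes at 0 in a tissue set to their bound. Ccl5 had 211, 214, 271 and 351 CPM in the CNS libraries and 7.24 and 40.2 CPM in the dLN libraries, and Ccl4 had 23.6, 28.1, 74.5 and 70.6 CPM in the CNS libraries and 0 and 3.63 CPM in the dLN libraries. Both encode inflammatory CC chemokines, and their log2 fold changes were 3.46 ± 0.66 (SE; adjusted p = 9.14e-04) and 4.76 ± 1.24 (SE; adjusted p = 0.0116). Ccl4 missed the threshold without dLN replicate 1 (adjusted p = 0.149), where 1 ligand rose and 1 fell. The member that fell was Ccl8, with 0, 0.132, 0.0676 and 0.205 CPM in the CNS libraries and 56.3 and 38.3 CPM in the dLN libraries, which is taken up below with transcripts of macrophages.

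Of 21 tested adhesion molecules 10 rose and 2 fell, with a median of 0.78. Itgb1, the beta 1 integrin chain that pairs with alpha 4 in VLA-4, had 2032, 1848, 1709.9 and 1714 CPM in the CNS libraries and 577 and 539 CPM in the dLN libraries, a log2 fold change of 1.71 ± 0.25 (SE; adjusted p = 8.19e-05). Cd44, the hyaluronan receptor of activated T cells, had 411, 385, 522 and 458 CPM in the CNS libraries and 164 and 159.6 CPM in the dLN libraries. The adhesion receptor Cd226 (DNAM-1) had 125, 154, 154 and 131 CPM in the CNS libraries and 49.3 and 43.2 CPM in the dLN libraries, and Selplg, the ligand of P-selectin, had 1455, 1944, 1715 and 1876 CPM in the CNS libraries and 800.0 and 765 CPM in the dLN libraries. In each of the 4 genes the CNS libraries lay above both dLN libraries, as for 20.1% of all genes tested. Itga4, the alpha 4 chain, was not called. The S100, annexin and cytoskeleton list held the largest share of risers, 24 of 26 with 0 lower and a median of 1.68. Anxa1 had 189.7, 303, 189.8 and 176 CPM in the CNS libraries and 18.8 and 23.8 CPM in the dLN libraries, Anxa2 had 586, 825, 752 and 607 CPM in the CNS libraries and 107 and 139 CPM in the dLN libraries and Capg, an actin-capping protein, had 571, 575, 692 and 485 CPM in the CNS libraries and 100.04 and 124 CPM in the dLN libraries. The calcium-binding S100a4 and S100a6 rose by 2.39 and 2.32. Leaving out dLN replicate 1 left 6 adhesion molecules and 22 of the S100 list higher.

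**Figure D2:**
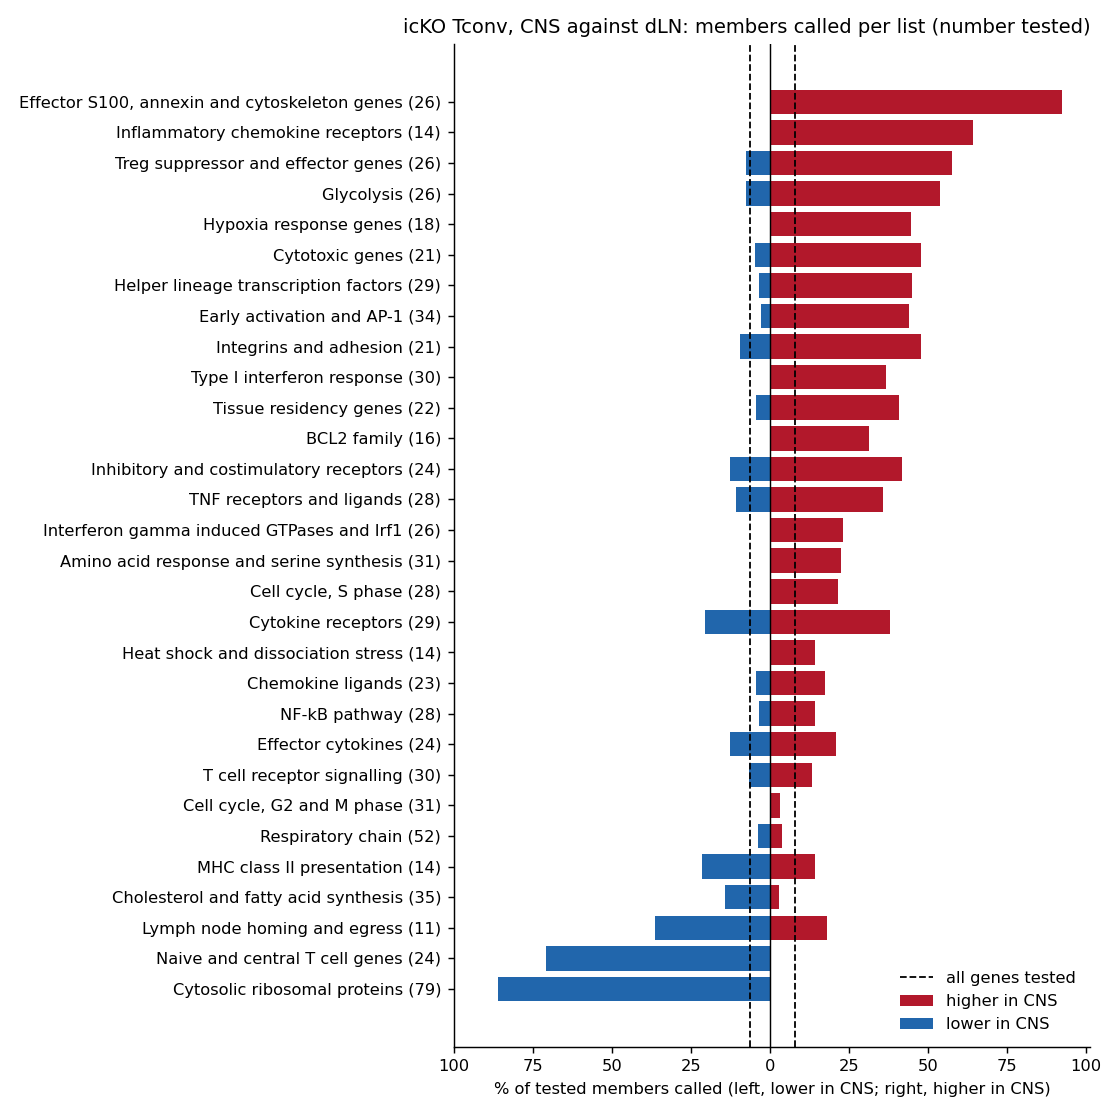
Percentage of each gene list's tested members (number in brackets) called higher in the CNS (right, red) and lower in the CNS (left, blue) in icKO Tconv cells; dashed lines mark all genes tested, 7.81% and 6.3%. Ribosomal protein and naive T cell genes are mostly lower, and S100, annexin and cytoskeleton genes and inflammatory chemokine receptors mostly higher.

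Receptors for cytokines changed in both directions, with 11 of 29 tested higher, 6 lower and a median of 0.18. The receptors of IL-2 and interferon gamma had some of the smallest p-values of the whole comparison. Ifngr1 (chromosome 10, 19591949 to 19610229, plus strand), the ligand-binding chain of the interferon gamma receptor, had 2552, 2292, 2351 and 2535 CPM in the CNS libraries and 258 and 283 CPM in the dLN libraries, a log2 fold change of 3.17 ± 0.26 (SE; adjusted p = 1.38e-07). Il2rb (chromosome 15, 78479256 to 78495271, minus strand), the beta chain shared by the IL-2 and IL-15 receptors, had 1584, 1547, 1663 and 1689 CPM in the CNS libraries and 299.6 and 346 CPM in the dLN libraries, a log2 fold change of 2.33 ± 0.19 (SE; adjusted p = 1.38e-07). Il2ra, the alpha chain of the high-affinity IL-2 receptor, had 176, 123, 217 and 143 CPM in the CNS libraries and 18.8 and 20.4 CPM in the dLN libraries (log2 fold change 3.07 ± 0.32 SE, adjusted p = 1.88e-06). The spread among the CNS libraries was small beside the distance to the dLN in each gene. Il12rb2, the inducible chain of the IL-12 receptor, had 117, 136, 133 and 168 CPM in the CNS libraries and 2.80 and 5.49 CPM in the dLN libraries, and Il18r1 rose by 1.75 on the log2 scale. Both chains of the IL-6 receptor were lower. Il6ra had 27.2, 45.1, 34.2 and 23.2 CPM in the CNS libraries and 196 and 170.1 CPM in the dLN libraries, and Il6st, the signalling chain gp130, had 55.1, 32.8, 22.2 and 44.7 CPM in the CNS libraries and 401 and 231 CPM in the dLN libraries. Their log2 fold changes were -2.49 ± 0.29 (SE; adjusted p = 4.69e-06) and -3.03 ± 0.43 (SE; adjusted p = 4.49e-05). Leaving out dLN replicate 1 left 8 receptors higher and 4 lower.

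The feedback inhibitors of STAT5 signalling were higher together with the IL-2 receptor chains. Socs2 (chromosome 10, 95385362 to 95417180, minus strand) had 78.5, 96.5, 118 and 97.9 CPM in the CNS libraries and 3.73 and 2.89 CPM in the dLN libraries, a log2 fold change of 4.88 ± 0.40 (SE; adjusted p = 1.38e-07). Cish (chromosome 9, 107296026 to 107302784, plus strand), which encodes CIS, had 436, 449, 742 and 554 CPM in the CNS libraries and 47.3 and 56.1 CPM in the dLN libraries, a log2 fold change of 3.40 ± 0.29 (SE; adjusted p = 1.86e-07). The RefSeq promoter of Cish (GRCm38.p6, chr9:107296409-107296688, plus strand, 250 bases before the RefSeq gene start and 30 after it) is shown because both genes are textbook STAT5 targets, with capitals marking TTCNNNGAA, the palindrome that STAT factors bind:
Cish: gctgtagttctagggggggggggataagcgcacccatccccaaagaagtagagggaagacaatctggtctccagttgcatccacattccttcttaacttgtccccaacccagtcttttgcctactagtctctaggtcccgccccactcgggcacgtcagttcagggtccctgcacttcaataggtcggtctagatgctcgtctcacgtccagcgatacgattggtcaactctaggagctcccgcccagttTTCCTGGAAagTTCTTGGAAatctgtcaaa
The palindrome reads the same on both strands. It occurred 2 times, starting at bases 1 and 12 counted from the gene start, and occurred in 8.47% of 27025 RefSeq promoters, each taken from 250 bases before to 50 after the gene start. Among the effector cytokine and cytokine receptor genes found in that table it occurred in 4 of 23 and 5 of 21 promoters. Of the 138 genes named for this comparison 111 were in the table, and Socs2, Il2rb and Ccr7 were not among them.

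Effector cytokines split, with 5 of 24 tested members higher, 3 lower and a median of 1.79. Ifng (chromosome 10, 118441046 to 118445892, plus strand) had 205, 253, 783 and 585 CPM in the CNS libraries and 1.79 and 8.08 CPM in the dLN libraries, and Csf2 (chromosome 11, 54247271 to 54249667, minus strand), which encodes GM-CSF, had 84.6, 31.8, 183 and 104 CPM in the CNS libraries and 0.645 and 0.445 CPM in the dLN libraries. Their log2 fold changes were 6.53 ± 1.46 (SE; adjusted p = 0.00367) and 7.51 ± 1.76 (SE; adjusted p = 0.00556). All CNS libraries lay above both dLN libraries for each gene, and within the CNS replicates 3 and 4 were the highest. Ifng missed the threshold without dLN replicate 1 (adjusted p = 0.09), and Csf2 with either dLN library left out (0.0869 and 0.0815). Lta, which encodes lymphotoxin alpha, had 87.7, 69.0, 161 and 161 CPM in the CNS libraries and 27.97 and 26.8 CPM in the dLN libraries and likewise missed it with either left out (0.162 and 0.15). Tnf had 144, 60.5, 315 and 214 CPM in the CNS libraries and 28.9 and 32.2 CPM in the dLN libraries, and Il17a had 10.3, 2.52, 16.6 and 7.10 CPM in the CNS libraries and 0 and 1.04 CPM in the dLN libraries. For both genes each CNS library exceeded both dLN libraries. Their log2 fold changes of 2.59 ± 0.91 (SE; adjusted p = 0.0622) and 4.12 ± 1.69 (SE; adjusted p = 0.116) did not pass. Such separation, seen also for Ifng and Csf2, was met with the CNS higher by 20.1% of all genes tested. Il16, which encodes a chemoattractant that binds CD4, was lower, with 503, 511, 467 and 579 CPM in the CNS libraries and 886 and 881 CPM in the dLN libraries (log2 fold change -0.78 ± 0.13 SE, adjusted p = 3.11e-04). The number of cytokines that rose was 0 without dLN replicate 1 and 2 without replicate 2.

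**Figure D3:**
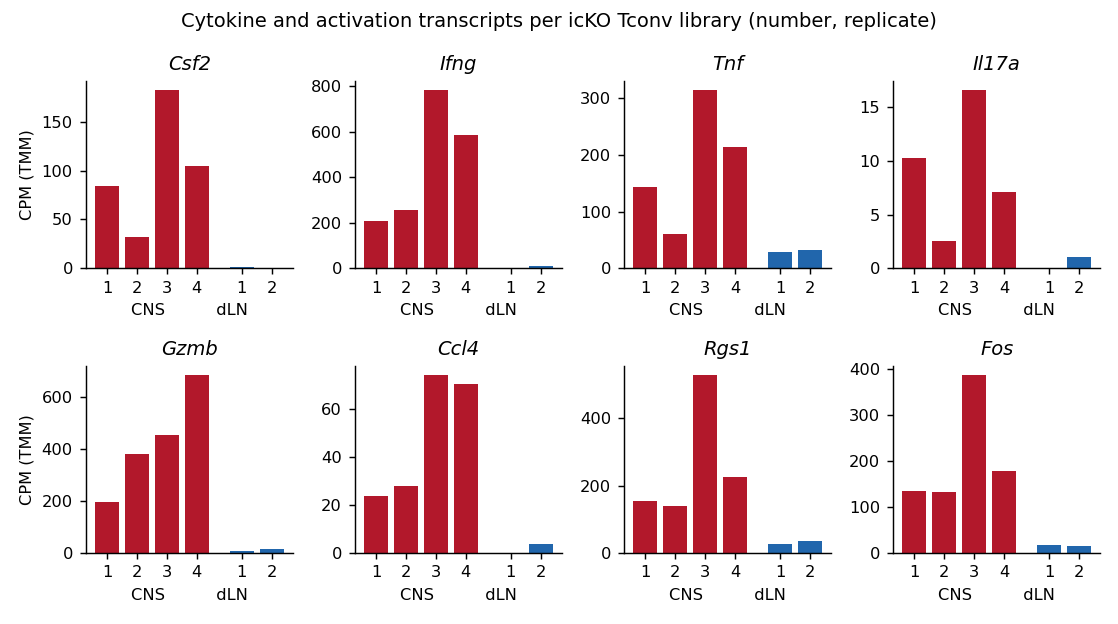
CPM (linear axes from 0) of 8 cytokine, chemokine and activation transcripts in each icKO Tconv library, CNS replicates 1 to 4 in red and dLN replicates 1 and 2 in blue. Replicate 3 is the highest CNS library in 7 of the panels and replicate 4 in that of Gzmb, and replicate 2 is the lowest for Csf2, Tnf and Il17a.

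The 4 CNS libraries also differed among themselves in such transcripts. Over 4408 genes with at least 50 CPM in the CNS, the median SD of log2 values between the 4 libraries was 0.17, and 19 genes spanned more than 2 log2 units. Znrf2, Oaz1-ps and Ranbp9 had the largest SD, and of the genes described here Csf2, Tnf and Igfbp4 were among the 19. The monocyte and macrophage markers summed to 63.7, 105, 325 and 246 CPM in CNS replicates 1 to 4, and to 195 and 144 CPM in the dLN, so that replicates 3 and 4, which had the most Ifng, also had the most of these markers. Their part in the cytokine values was not tested.

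Transcription factors of helper lineages were called higher for 13 of 29 tested members and lower for 1, with a median of 0.86. Rora, a retinoid-related orphan receptor, had 347, 287, 365 and 332 CPM in the CNS libraries and 59.2 and 62.0 CPM in the dLN libraries, a log2 fold change of 2.46 ± 0.22 (SE; adjusted p = 2.43e-07). Bhlhe40, a factor needed for GM-CSF production in mouse EAE, had 570.4, 747, 996 and 804 CPM in the CNS libraries and 47.8 and 90.8 CPM in the dLN libraries (log2 fold change 3.49 ± 0.40 SE, adjusted p = 4.30e-06), and Runx2 had 104, 87.3, 141 and 99.99 CPM in the CNS libraries and 17.4 and 12.7 CPM in the dLN libraries (log2 fold change 2.84 ± 0.34 SE, adjusted p = 7.74e-06). Tbx21, which encodes T-bet, the Th1 factor, had 173, 237, 169 and 230.0 CPM in the CNS libraries and 15.1 and 19.3 CPM in the dLN libraries, and Hif1a had 1522, 969, 1663 and 1654 CPM in the CNS libraries and 280.3 and 355 CPM in the dLN libraries. All 5 genes separated the tissues, as did 20.1% of all genes tested with the CNS higher. CNS replicate 2 was the lowest of its group in Rora, Runx2 and Hif1a. Stat4, which signals from the IL-12 receptor, and Prdm1, which encodes Blimp-1, rose by 1.2003 and 2.17 on the log2 scale. Without dLN replicate 1, 9 factors rose and 0 fell.

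Genes that follow T cell receptor signalling were examined with its components. Of 34 tested early activation and AP-1 genes 15 rose and 1 fell, with a median of 0.87. Fos had 135, 133, 388 and 178 CPM in the CNS libraries and 17.8 and 15.5 CPM in the dLN libraries, Junb had 710.1, 875, 1387 and 1047 CPM in the CNS libraries and 207 and 219 CPM in the dLN libraries and Dusp5, a phosphatase of ERK, had 84.6, 75.6, 158 and 117 CPM in the CNS libraries and 16.6 and 17.5 CPM in the dLN libraries. Jun had a log2 fold change of 3.59 and Rgs1, a regulator of G protein signalling, one of 3.07. CNS replicate 3 was the highest library for Fos, Junb, Dusp5, Jun and Rgs1. Of 30 T cell receptor signalling genes 4 rose, 2 fell and the median was -0.01. Sh2d2a, an adaptor of activated T cells, rose by 1.08, and Tox fell by 1.86. Ptpn22, an inhibitory phosphatase, rose by 0.74, and missed the threshold without dLN replicate 1 (adjusted p = 0.0742). Of 28 NF-kB pathway genes 4 rose and 1 fell, with a median of 0.02. Over all genes tested 7.81% rose and 6.3% fell with a median of 0, and both of these lists lay near that. Tnfaip3, which encodes the inhibitor A20, had 378, 304, 609 and 520.2 CPM in the CNS libraries and 128 and 122 CPM in the dLN libraries. Ikbke fell by 0.96, and Traf1 rose by 0.85 and was lost without dLN replicate 1 (adjusted p = 0.0617). In that fit 9 activation, 1 receptor signalling and 1 NF-kB gene rose.

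Inhibitory and costimulatory receptors rose in 10 of 24 tested members and fell in 3, with a median of 0.56. Entpd1, which encodes the ectonucleotidase CD39, had 52.4, 38.9, 40.8 and 60.3 CPM in the CNS libraries and 5.52 and 4.15 CPM in the dLN libraries (log2 fold change 3.31 ± 0.46 SE, adjusted p = 3.96e-05). Slamf1 had 187, 153, 210.3 and 229 CPM in the CNS libraries and 43.2 and 48.8 CPM in the dLN libraries, a log2 fold change of 2.08. Pdcd1, which encodes PD-1, had 375, 143, 251 and 437 CPM in the CNS libraries and 93.7 and 145 CPM in the dLN libraries and 1 CNS library below the higher dLN library. Havcr2, which encodes TIM-3, rose by 2.69, and both it and Pdcd1 missed the threshold without dLN replicate 1 (adjusted p = 0.0781 and 0.217). Btla, an inhibitory receptor of naive and follicular helper cells, fell by 1.51. In the TNF family 10 of 28 genes rose and 3 fell, with a median of 0.78. Tnfrsf18, which encodes GITR, had 398, 365, 456 and 456 CPM in the CNS libraries and 106 and 127 CPM in the dLN libraries, and Tnfrsf4, which encodes OX40, had 278, 169, 375 and 273 CPM in the CNS libraries and 58.5 and 94.1 CPM in the dLN libraries. Cd27, a costimulatory receptor of naive and memory cells, was lower with 48.5, 71.7, 36.4 and 81.8 CPM in the CNS libraries and 209.6 and 226 CPM in the dLN libraries, and Tnfsf8, the ligand of CD30, fell by 1.24. Leaving out dLN replicate 1 left 4 higher in each of the 2 lists.

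The list of Treg suppressor and effector genes rose in 15 of 26 tested members and fell in 2, although Foxp3 was under 1 CPM in every library. The members that rose included Il2ra, Tnfrsf18, Tnfrsf4, Entpd1 and Capg, which activated effector cells also express. Izumo1r, which encodes folate receptor 4, fell, with 30.9, 18.9, 18.0 and 26.4 CPM in the CNS libraries and 115 and 166 CPM in the dLN libraries (log2 fold change -2.58 ± 0.24 SE, adjusted p = 6.28e-07). Cytotoxic genes rose in 10 of 21 and fell in 1, with a median of 1.95. Nkg7, a granule membrane protein, had 627, 1122, 1017 and 1081 CPM in the CNS libraries and 50.5 and 101 CPM in the dLN libraries, Ctsw, which encodes cathepsin W, had 495, 490.0, 538 and 428 CPM in the CNS libraries and 47.8 and 48.6 CPM in the dLN libraries and Klrc1, which encodes NKG2A, had 251, 156, 200.5 and 237 CPM in the CNS libraries and 7.10 and 10.5 CPM in the dLN libraries. Gzmb, which encodes granzyme B, had 196, 379, 454 and 687 CPM in the CNS libraries and 5.45 and 15.4 CPM in the dLN libraries (log2 fold change 5.36 ± 0.88 SE, adjusted p = 2.32e-04). Gzma, which encodes granzyme A, had 37.2, 48.1, 46.8 and 52.8 CPM in the CNS libraries and 3.80 and 4.30 CPM in the dLN libraries (log2 fold change 3.51 ± 0.73 SE, adjusted p = 0.00208), and missed the threshold without dLN replicate 1 (adjusted p = 0.0551). Prf1, which encodes perforin, went the other way, with 12.2, 26.3, 14.1 and 38.2 CPM in the CNS libraries and 79.7 and 69.4 CPM in the dLN libraries, and missed the threshold with either dLN library left out (adjusted p = 0.122 and 0.0593). The summed level of 7 CD8 T and NK cell markers was 134 to 198 CPM in CNS and 146 to 164 CPM in dLN libraries. That sum includes Gzma and Prf1, the 1 member called higher and the 1 called lower, so it does not measure the share of such cells. Relative to library totals, Klrd1 had 29.4 to 59.3 CPM in the CNS and 22.5 and 10.3 CPM in the dLN. Klrb1c had 6.83 to 9.93 CPM in the CNS and 11.4 and 24.3 CPM in the dLN. On the same scale Cd8b1 had 14.5, 15.2, 22.9 and 38.8 CPM in the CNS and 34.9 and 34.3 CPM in the dLN. Cd8a had 5.17, 4.77, 6.17 and 18.3 CPM in the CNS and 5.60 and 0.751 CPM in the dLN. Ncr1 had 0.333, 1.44, 0.191 and 0 CPM in the CNS and 3.39 and 1.88 CPM in the dLN. The part of CD8 T and NK cells in the cytotoxic values was not tested. Leaving out dLN replicate 1 left 9 Treg and 7 cytotoxic genes higher.

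Genes of glycolysis were higher in the CNS in 14 of 26 tested members and lower in 2, with a median of 0.84. Slc16a3, which encodes the lactate exporter MCT4, had 70.0, 77.6, 134 and 106 CPM in the CNS libraries and 4.88 and 4.005 CPM in the dLN libraries, a log2 fold change of 4.44 ± 0.58 (SE; adjusted p = 1.84e-05). Hk2, which encodes hexokinase 2, the entry enzyme, had 28.8, 21.9, 36.2 and 33.7 CPM in the CNS libraries and 3.87 and 1.41 CPM in the dLN libraries (log2 fold change 3.51 ± 0.51 SE, adjusted p = 7.38e-05), and Tpi1, which encodes triosephosphate isomerase, had 507, 423, 716 and 565 CPM in the CNS libraries and 104 and 139.7 CPM in the dLN libraries. The glucose transporter gene Slc2a3 rose by 1.61. The 2 that fell were Ldhb, the lactate dehydrogenase chain of oxidative tissues, with 12.96, 24.2, 14.3 and 17.3 CPM in the CNS libraries and 65.0 and 62.7 CPM in the dLN libraries (log2 fold change -1.89 ± 0.21 SE, adjusted p = 4.03e-06), and Pdk1, with 91.4, 56.1, 72.7 and 79.4 CPM in the CNS libraries and 318 and 327 CPM in the dLN libraries, which missed the threshold with either dLN library left out (adjusted p = 0.0563 and 0.0516). Of 18 hypoxia response genes 8 rose and 0 fell, with a median of 0.58. Ero1l, an oxidase of the endoplasmic reticulum, had 158, 168, 209 and 172 CPM in the CNS libraries and 72.4 and 60.2 CPM in the dLN libraries. Ankrd37 and Plin2, a lipid droplet protein, rose by 1.95 and 1.25 and missed the threshold without dLN replicate 1 (adjusted p = 0.11 and 0.0746) and without replicate 2 (0.0638 and 0.113). Without dLN replicate 1, 9 glycolysis genes rose and 1 fell, and 1 hypoxia gene rose.

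The promoters of Slc16a3 (GRCm38.p6, chr11:120948817-120949066, plus strand) and Ankrd37 (chr8:45999851-46000100, minus strand), 250 bases up to the RefSeq gene start, are shown because ACGTG is the core of the element that hypoxia-inducible factors bind, and capitals mark it on either strand (read as ACGTG or CACGT):
Slc16a3: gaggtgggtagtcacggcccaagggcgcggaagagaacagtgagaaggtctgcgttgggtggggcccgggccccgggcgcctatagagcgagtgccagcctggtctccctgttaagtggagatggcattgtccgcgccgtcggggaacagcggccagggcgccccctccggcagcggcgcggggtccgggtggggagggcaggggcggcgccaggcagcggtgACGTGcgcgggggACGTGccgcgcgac
Ankrd37: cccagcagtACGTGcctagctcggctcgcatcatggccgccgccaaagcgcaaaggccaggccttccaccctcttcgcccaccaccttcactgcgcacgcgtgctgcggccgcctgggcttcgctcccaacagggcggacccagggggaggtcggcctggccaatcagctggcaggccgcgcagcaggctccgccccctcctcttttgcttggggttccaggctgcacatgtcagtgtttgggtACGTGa
Matches began at bases -27 and -14 in Slc16a3 and at -241 and -6 in Ankrd37, counted back from the gene start. The core occurred in 19.7% of those 27025 RefSeq promoters, in 12 of 25 glycolysis promoters and in 12 of 15 hypoxia response promoters. These shares count all list members found in the promoter table, called or not, so they are properties of the lists and not of these libraries.

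Genes of respiration, lipid and amino acid metabolism were compared beside the shares of all genes called higher (7.81%) and lower (6.3%). Of 52 respiratory chain genes 2 rose, 2 fell and the median was 0.06. Cycs, which encodes cytochrome c, had 114, 98.5, 120.2 and 91.0 CPM in the CNS libraries and 53.6 and 57.4 CPM in the dLN libraries, and Ndufa4 had 117, 119, 111 and 109.5 CPM in the CNS libraries and 179.6 and 189 CPM in the dLN libraries. Cox5a rose by 0.67 and missed the threshold with either dLN library left out (adjusted p = 0.254 and 0.054). Cholesterol and fatty acid genes fell in 5 of 35 and rose in 1, and those with the smallest p were the cholesterol exporter genes Abcg1, with 58.6, 42.0, 35.3 and 52.5 CPM in the CNS libraries and 159 and 136 CPM in the dLN libraries, and Abca1, with 11.6, 2.52, 4.87 and 3.76 CPM in the CNS libraries and 63.8 and 50.1 CPM in the dLN libraries. Both are targets of liver X receptors. Sc5d, a late enzyme of cholesterol synthesis, rose by 0.61 but not without dLN replicate 1 (adjusted p = 0.108) or 2 (0.0846). Of 31 amino acid response genes 7 rose and 0 fell, led by Asns, which encodes asparagine synthetase, with 61.7, 53.2, 78.2 and 62.8 CPM in the CNS libraries and 8.10 and 4.30 CPM in the dLN libraries (log2 fold change 3.36 ± 0.51 SE, adjusted p = 1.08e-04). Slc3a2, the heavy chain of amino acid transporters, rose by 1.32, and Aldh18a1, an enzyme of proline synthesis, rose by 0.79 and was lost without dLN replicate 1 (adjusted p = 0.0727). Without that library 2 amino acid genes rose and 2 cholesterol genes fell.

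Ribosomal protein genes were lower in the CNS. Of 79 tested, 68 were called lower and 0 higher, with a median of -0.77 and 0 of 79 fitted changes above 0. Rpl12 had 323, 182, 345 and 234 CPM in the CNS libraries and 639 and 734 CPM in the dLN libraries (log2 fold change -1.34 ± 0.22 SE, adjusted p = 2.03e-04), Rps19 had 1197, 1054, 1249 and 1022 CPM in the CNS libraries and 2069 and 2126 CPM in the dLN libraries and Rplp1 had 491, 355, 514 and 427 CPM in the CNS libraries and 788 and 948 CPM in the dLN libraries. The list's median lay below 0 under each of the other scalings and fits, at -0.77 with DESeq2's size factors and at -0.54 without the libraries with disagreeing file names. The count was less steady than the direction. It was 47 without dLN replicate 1, 24 without dLN replicate 2 and 2 without the libraries with disagreeing file names. Many ribosomal protein genes have pseudogenes of near-identical sequence, so reads may be split between copies.

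Interferon-induced genes rose in part. Of 30 type I interferon response genes 11 rose and 0 fell, with a median of 1.02. Isg20 had 183, 170.1, 330.4 and 252 CPM in the CNS libraries and 30.7 and 69.2 CPM in the dLN libraries (log2 fold change 2.23 ± 0.42 SE, adjusted p = 8.67e-04), and Cmpk2 and Oas3 rose by 2.02 and 2.07. The 2 dLN libraries were not alike here, since replicate 2 lay above replicate 1 for Isg20, Cmpk2 and Oas3. Without dLN replicate 1, 1 member rose, and Cmpk2 and Oas3 had adjusted p of 0.119 and 0.166, while 10 rose without replicate 2. Without CNS replicate 3 or 4, 5 members rose in each fit. Of 26 interferon gamma induced GTPases and related genes 6 rose and 0 fell. Gbp3, Gbp6 and Gbp7, guanylate-binding proteins, rose by 1.72, 1.39 and 1.38, and missed the threshold without dLN replicate 1 (adjusted p = 0.119, 0.264 and 0.125), where 0 of the list rose.

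Genes of survival and residency were also examined. Of 16 BCL2 family genes 5 rose and 0 fell. Bcl2l1, which encodes the anti-apoptotic BCL-XL, had 84.1, 110.0, 108 and 138 CPM in the CNS libraries and 28.9 and 33.0 CPM in the dLN libraries, and Pmaip1, which encodes the pro-apoptotic NOXA, had 47.9, 66.1, 52.2 and 77.4 CPM in the CNS libraries and 9.97 and 16.5 CPM in the dLN libraries. Bcl2a1d, of a family of near-identical copies whose reads may be split, rose by 1.77, and was lost without dLN replicate 1 (adjusted p = 0.103), where 2 of the list rose. Of 22 tissue residency genes 9 rose and 1 fell, with a median of 1.26, and they included Cxcr6, Bhlhe40 and Adam19, a metalloprotease with 164, 167, 199 and 216 CPM in the CNS libraries and 46.3 and 51.8 CPM in the dLN libraries. Leaving out dLN replicate 2 left 6 residency genes higher. Among 14 genes of MHC class II presentation 3 fell and 2 rose, beside 6.3% and 7.81% of all genes. H2-Ob and H2-DMa had log2 fold changes of -2.498 and -1.203, and the costimulatory ligand Cd86 rose by 1.98. H2-DMa missed the threshold without dLN replicate 2 (adjusted p = 0.0534) and Cd86 without replicate 1 (0.0921), where 3 fell and 0 rose.

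Proliferation genes were compared between the tissues beside the 7.81% of all genes that were called higher. Of 28 S phase genes 6 rose and 0 fell, with a median of 0.62, and of 31 G2 and M phase genes 1 rose and 0 fell, with a median of 0.44. Mcm2, a subunit of the replicative helicase, had 219, 269.8, 228 and 238 CPM in the CNS libraries and 166 and 165 CPM in the dLN libraries. Mcm7, another of its subunits, had 161, 195, 173 and 168 CPM in the CNS libraries and 113 and 109.8 CPM in the dLN libraries. Both rose by under 2-fold, with log2 fold changes of 0.53 and 0.64. Slbp, the histone mRNA binding protein, rose by 0.76. Prc1, a regulator of cytokinesis, had 70.0, 85.6, 56.3 and 55.9 CPM in the CNS libraries and 23.1 and 28.6 CPM in the dLN libraries. These calls rest on both dLN libraries. Mcm2, Mcm7 and Slbp missed the threshold without replicate 1 (adjusted p = 0.163, 0.184 and 0.0652) or replicate 2 (0.144, 0.186 and 0.0566), Mcm7 also without CNS replicate 2 (0.0564), and Prc1 without dLN replicate 1 (0.107). The number of S phase genes that rose was 1 without dLN replicate 1, 0 without dLN replicate 2 and 2 without CNS replicate 2.

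By the rule for the largest changes, the 10 largest rises were H2-Q6, Sparc, Csf2, Hspa1a, Ifng, Hspa1b, Crispld2, Lilr4b, Kcnj8 and Hbegf. Lilr4b, an inhibitory immunoglobulin-like receptor, had 113, 138, 173 and 131 CPM in the CNS libraries and 1.86 and 2.89 CPM in the dLN libraries (log2 fold change 5.86 ± 0.81 SE, adjusted p = 3.37e-05). Crispld2, a secreted protein, had 49.1, 31.8, 55.8 and 33.5 CPM in the CNS libraries and 0.359 and 0.742 CPM in the dLN libraries, and Hbegf, which encodes a ligand of the EGF receptor, had 8.68, 5.23, 17.2 and 10.2 CPM in the CNS libraries and 0.359 and 0 CPM in the dLN libraries. H2-Q6 and Sparc were at 0 in both dLN libraries. H2-Q6 had 15.6, 26.9, 8.25 and 38.2 CPM in the CNS libraries, at least 102-fold higher than a floor of 3 counts per dLN library. Sparc, a secreted matrix protein, had 1.14, 6.29, 20.1 and 13.04 CPM in the CNS libraries, at least 46.4-fold higher. H2-Q6 belongs to a family of near-identical class I genes whose reads can be assigned to any copy. Hspa1a and Hspa1b, near-identical copies of the inducible heat shock protein 70 gene, were the 2 called of 14 heat shock and dissociation stress genes. That share is near the 14.1% of all genes called. Hspa1a had 30.8, 8.41, 25.6 and 2.73 CPM in the CNS libraries and 0 and 0.222 CPM in the dLN libraries. Hspa1b had 50.3, 11.98, 42.2 and 5.05 CPM in the CNS libraries and 0.574 and 0 CPM in the dLN libraries, and CNS replicates 1 and 3 were the highest for both. Kcnj8, a potassium channel gene, had 10.1, 8.34, 10.7 and 21.5 CPM in the CNS libraries and 0 and 0.445 CPM in the dLN libraries. Of the 10, Lilr4b was called in each fit that leaves out a library. H2-Q6 missed the threshold in every such fit, with adjusted p of 0.0509 to 0.257. The others missed it in at least 1 such fit, with adjusted p of up to 0.15 for Sparc, 0.0834 for Hspa1a, 0.0581 for Hspa1b, 0.186 for Crispld2, 0.232 for Kcnj8 and 0.214 for Hbegf.

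The 10 largest falls were Cd209b, Timd4, Ccl8, Slc16a5, Tspan9, Wnt10a, Ampd1, Sostdc1, Adh1 and Igfbp4, and Cd209b and Timd4 among them are known from lymph node macrophages. Cd209b, which encodes the lectin SIGN-R1, was at 0 in all 4 CNS libraries and had 47.0 and 38.9 CPM in the dLN, at least 221-fold lower in the CNS against a floor of 3 counts per library. Timd4, a phosphatidylserine receptor, was likewise at 0 in the CNS and had 14.8 and 7.42 CPM in the dLN, at least 57.1-fold lower. Ccl8 fell by 8.81, and Lyz2, which encodes lysozyme of myeloid cells, had 0.628, 3.84, 9.53 and 3.76 CPM in the CNS libraries and 70.9 and 53.1 CPM in the dLN libraries. The left-out library dLN icKO replicate 3 had 1034 CPM of Ccl8, 527 of Cd209b, 0 of Timd4 and 1532 of Lyz2 relative to its total. Slc16a5, a transporter gene, had 0, 0.860, 0.203 and 2.66 CPM in the CNS libraries and 74.4 and 66.8 CPM in the dLN libraries, Wnt10a had 0, 0.662, 0 and 0.615 CPM in the CNS libraries and 19.4 and 18.8 CPM in the dLN libraries, Adh1, an alcohol dehydrogenase gene, had 1.03, 1.19, 0.203 and 1.98 CPM in the CNS libraries and 21.4 and 19.3 CPM in the dLN libraries and Tspan9, a tetraspanin gene, had 0.286, 0.794, 0 and 0.273 CPM in the CNS libraries and 14.6 and 28.2 CPM in the dLN libraries. Ampd1, an AMP deaminase gene, and Sostdc1, a secreted BMP antagonist that follicular helper cells also express, fell by 5.49 and 4.24. Ampd1 missed the threshold without dLN replicate 1 (adjusted p = 0.0845). Sostdc1 missed it without dLN replicate 2 (adjusted p = 0.162) and without CNS replicate 1, 2 or 3 (0.0564, 0.0504 and 0.0588).

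Of the cells that reside in the CNS, markers of microglia were called in part, and those of oligodendrocytes, astrocytes and neurons were not called. Of 9 microglial markers 3 rose and 0 fell, and the summed level was 205 to 307 CPM in CNS and 146 to 180 CPM in dLN libraries. Tmem119, Sall1, Fcrls and Trem2 were at 0 in both dLN libraries, while Tmem119 had 1.94, 9.99, 12.7 and 9.83 CPM in the CNS, at least 39.4-fold higher. Of 15 monocyte and macrophage markers Fcgr1 was called higher, with 0.400, 1.72, 8.25 and 5.12 CPM in the CNS libraries and 0.215 and 0 CPM in the dLN libraries, and Lyz2 lower. Tmem119 missed the threshold with either dLN library left out (adjusted p = 0.104 and 0.0843), as did Fcrls (0.169 and 0.141) and Fcgr1 (0.151 and 0.24), the last also without CNS replicate 3 (0.0808) or 4 (0.0588). Neutrophil markers summed to 5.26 to 14.1 CPM in CNS and 1.65 to 4.05 CPM in dLN libraries, B cell markers to 7.25 to 16.7 CPM in CNS and 18.3 to 27.4 CPM in dLN libraries, and astrocyte markers to 0.222 to 2.23 CPM in CNS and 0 to 0.368 CPM in dLN libraries. Of 7 oligodendrocyte markers 4 were tested and 0 called, and the 7 summed to 492 to 672 CPM in CNS and 620 to 652 CPM in dLN libraries. Cnp, which was 491 to 672 CPM in CNS and 620 to 652 CPM in dLN libraries, made up nearly all of this sum, and 5 markers, among them Mog, Mag, Cldn11 and Opalin, were at 0 in all CNS libraries. The part of these cells in the genes called was not tested, and in bulk RNA fewer cells of a type and less RNA per cell cannot be told apart.

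The same tissue difference was then set beside that of Ctrl mice, which share no library with it, to ask whether Tconv cells of icKO mice differ from those of Ctrl mice in how they change between node and CNS. Most genes moved the same way. Of the 1055 genes higher in the CNS of icKO mice 1015 (96.2%) were also higher in Ctrl mice by fitted value and 548 were called there, and of the 850 lower genes 803 (94.5%) and 183. In Ctrl mice 47.2% of all genes had positive values, 5.97% were called higher and 2.93% lower. The median log2 fold changes of these sets were 1.19 in icKO and 0.72 in Ctrl mice for the higher genes, and -1.12 and -0.53 for the lower ones. Since the sets were chosen in icKO mice their values there tend to be the larger. Chosen instead in Ctrl mice, 806 higher genes had medians of 0.98 in icKO and 0.87 in Ctrl mice, and 396 lower genes -0.79 and -0.96.

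**Figure D4:**
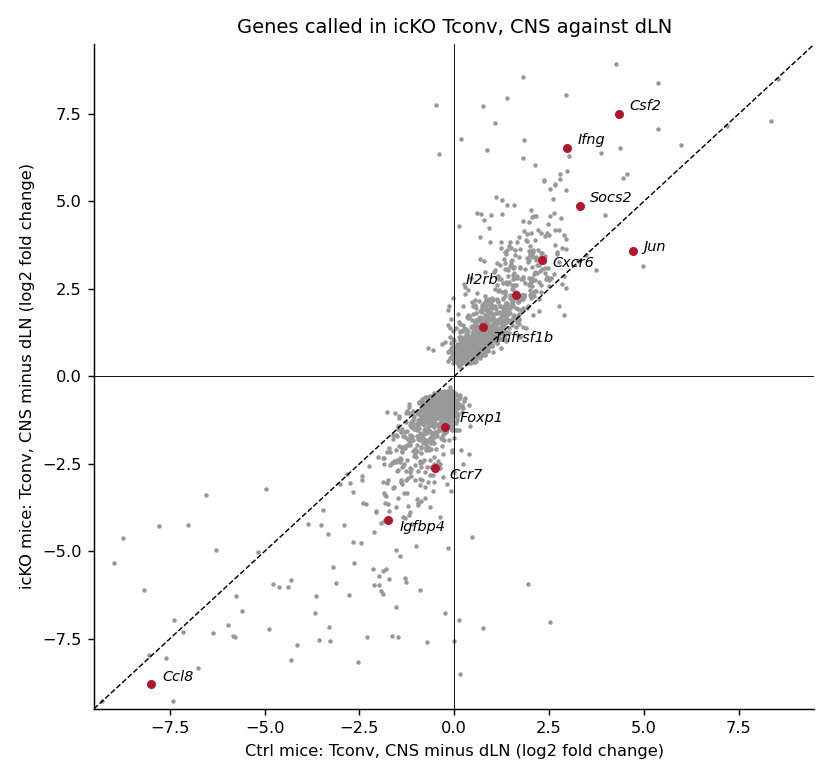
Log2 fold change between CNS and dLN in icKO Tconv cells (vertical) against that in Ctrl Tconv cells (horizontal) for the 1905 genes called in icKO mice, of which 9 lie outside the axes; the dashed line marks equal values. Most genes have the same sign in both genotypes, and Ccr7 and Foxp1 lie well below the line.

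A direct test of the difference between the genotypes called 0 of 13500 genes with edgeR (0%), with 1101 at an unadjusted p under 0.05 (8.16%). DESeq2's Wald test called 45 genes higher and 31 lower, and limma voom 5 and 19. Foxp1, Ccr7, Ly6c1 and Il6ra were among the 5 genes with the smallest p. Ccr7 had 157, 325, 105 and 140.5 CPM in CNS icKO and 762, 758, 602 and 765 CPM in CNS Ctrl libraries, and 1151 and 1086 CPM in dLN icKO and 873, 1043 and 1169 CPM in dLN Ctrl libraries. Every CNS icKO library lay below every CNS Ctrl library, while the dLN libraries of the genotypes overlapped. Foxp1 had 103, 121, 84.1 and 114 CPM in CNS icKO and 219, 186, 222 and 239 CPM in CNS Ctrl libraries, which also did not overlap. The interactions, icKO minus Ctrl, were -2.11 ± 0.39 (SE; adjusted p = 0.0783) for Ccr7 and -1.22 ± 0.21 (SE; adjusted p = 0.0626) for Foxp1. Those of Ly6c1 and Il6ra were -2.25 ± 0.45 (SE; adjusted p = 0.149) and -1.96 ± 0.39 (SE; adjusted p = 0.149). Leaving out CNS icKO replicate 2 brought Ccr7 to -2.54 (adjusted p = 9.85e-05), Ly6c1 to -2.64 (0.00426), Foxp1 to -1.29 (0.0167) and Il6ra to -2.15 (0.031), and called 9 genes lower. Leaving out CNS Ctrl replicate 2 also brought Foxp1 past the threshold (adjusted p = 0.0441), but not Ccr7, Ly6c1 or Il6ra. In the other fits that leave out 1 library none of these genes passed. Ccr7 and Foxp1 each had an adjusted p of 0.512 without dLN Ctrl replicate 1 and of 0.393 without dLN icKO replicate 1. Without the libraries with disagreeing file names, Ccr7 was at -2.39 (0.00698).

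The 30 functional lists had median differences between the genotypes of -0.91 to 1.66, with 0 members called. The naive list's median tissue change was -1.41 in icKO and -0.57 in Ctrl mice, and that of ribosomal proteins -0.77 and -0.32. That of S phase genes was 0.62 in icKO and -0.09 in Ctrl mice, and that of glycolysis 0.84 and 0.35. These medians are descriptions, since no member passed the test of the difference.

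Against Treg cells of icKO mice, the tissue difference of Tconv cells differed for 1118 genes (8.28%), with 542 interactions above 0 (4.01%) and 576 below (4.27%). The tissue change of IL-2 receptor and STAT5 feedback genes was higher in Tconv than in Treg cells. Il2ra averaged 165 and 19.6 CPM in CNS and dLN Tconv cells, and 373 and 487 CPM in CNS and dLN Treg cells, an interaction of 3.46 ± 0.40 (SE; adjusted p = 1.65e-05). CD25, the product of Il2ra, is a textbook marker of Treg cells. Il2rb had an interaction of 1.98 ± 0.24 (SE; adjusted p = 2.81e-05), Socs2 of 3.52 ± 0.46 (SE; adjusted p = 5.21e-05) and Cish of 2.39 ± 0.34 (SE; adjusted p = 1.79e-04). Tnfrsf1b averaged 343 and 129.8 CPM in CNS and dLN Tconv cells and 406 and 619 CPM in CNS and dLN Treg cells, an interaction of 2.01 ± 0.25 (SE; adjusted p = 3.19e-05). Of the 24 genes of the naive list, 14 had a called interaction below 0 and 0 above, or 8 below without dLN Tconv replicate 1, and the median tissue change of the list was -1.41 in Tconv and 0.14 in Treg cells. Foxp1 had an interaction of -1.73 ± 0.22 (SE; adjusted p = 4.31e-05) and Ly6c1 of -3.70 ± 0.46 (SE; adjusted p = 3.98e-05). Ldhb averaged 17.2 and 63.8 CPM in CNS and dLN Tconv cells, and 80.0 and 53.1 CPM in CNS and dLN Treg cells, an interaction of -2.49 ± 0.30 (SE; adjusted p = 3.02e-05).

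Proliferation genes moved apart between the cell types. Of 28 S phase genes 25 had a called interaction above 0 and 0 below, and of 31 G2 and M phase genes 23 and 0. Without dLN Tconv replicate 1 the counts were 15 and 5, without the libraries with disagreeing file names 16 and 12, and with the left-out dLN library included 3 and 3. Their median tissue changes were 0.62 and 0.44 in Tconv cells and -1.46 and -2.05 in Treg cells. Mcm7 averaged 174 and 111 CPM in CNS and dLN Tconv cells and 104 and 293 CPM in CNS and dLN Treg cells, an interaction of 2.14 ± 0.26 (SE; adjusted p = 3.02e-05). Prc1 averaged 67.0 and 25.8 CPM in CNS and dLN Tconv cells and 39.7 and 122 CPM in CNS and dLN Treg cells, an interaction of 2.997 ± 0.42 (SE; adjusted p = 1.42e-04). Mcm2 and Slbp had interactions of 1.64 ± 0.20 (SE; adjusted p = 3.02e-05) and 1.34 ± 0.23 (SE; adjusted p = 0.00101). The S100, annexin and cytoskeleton list had 13 of 26 interactions called above 0 and 0 below, or 6 without dLN Tconv replicate 1. The 4 cell cycle genes were lower in CNS than in dLN Treg cells and higher in CNS than in dLN Tconv cells on average.

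**Figure D5:**
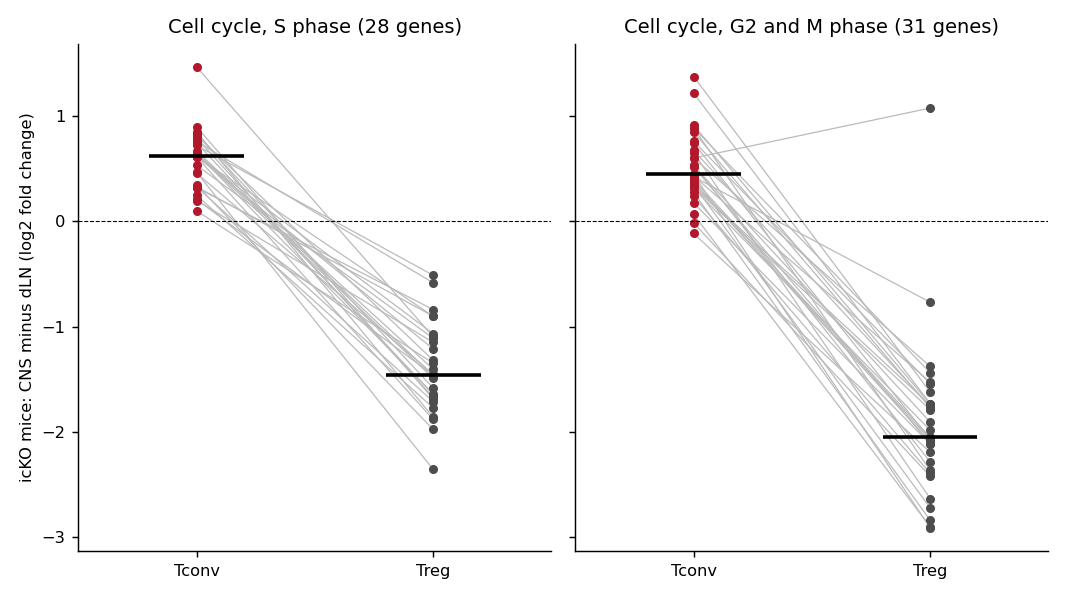
Log2 fold change between CNS and dLN in icKO mice of 28 S phase (left) and 31 G2 and M phase genes (right), in Tconv cells (red) and Treg cells (grey); a line joins each gene and black bars are medians. Medians are 0.62 and 0.44 in Tconv cells and -1.46 and -2.05 in Treg cells.

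The largest interactions were of sparse genes, whose fitted size depends on the small count added by the fit. Above 0 they were H2-Q6, Gen1, Hspa1b, Fancd2 and Tns2, and below 0 Ltf, Procr, Cd177, Apod and Fpr2. Gen1 and Fancd2, which act in DNA repair, averaged 4.45 and 6.96 CPM in CNS Tconv, 1.69 and 5.66 CPM in dLN Tconv, 0 and 0.837 CPM in CNS Treg and 12.2 and 22.6 CPM in dLN Treg libraries. Ltf and Cd177, known from neutrophils, averaged 0 and 0.289 CPM in CNS Tconv, 0.630 and 1.94 CPM in dLN Tconv, 44.1 and 14.8 CPM in CNS Treg and 0.408 and 0.0875 CPM in dLN Treg libraries. The median tissue change of the 15 monocyte and macrophage markers was 0.20 in Tconv and 4.65 in Treg cells, and of 14 MHC class II genes 9 had a called interaction below 0 and 0 above. The microglial and neutrophil markers had medians of 2.68 and 0.71 in Tconv and of 7.32 and 7.40 in Treg cells. The part of these transcripts of the CNS Treg libraries in the interactions below 0 was not tested. Without dLN Tconv replicate 1 the test called 176 interactions above 0 and 215 below. Among the sparse genes, H2-Q6, Hspa1b, Fancd2 and Tns2 missed the threshold with either dLN Tconv library left out. Gen1, Cd177 and Apod missed it without dLN Tconv replicate 1, where Apod was at -2.95 (adjusted p = 1). Ltf and Fpr2 missed it without dLN Tconv replicate 2, at -6.72 (adjusted p = 1) and -7.77 (0.331). Hspa1b also missed it without CNS Tconv replicate 1 or 3 or any 1 of the 6 Treg libraries, and Fpr2 without CNS Treg replicate 3 or dLN Treg replicate 2 or 3. Procr was called in each of the 12 fits that leave out a library.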

How the data were processed

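Polyadenylated RNA of purified Treg and Tconv cells was made into libraries with SMART-Seq v4 and Nextera, per the labels' protocols, a chemistry that does not mark strand, so overlapping antisense genes cannot be told apart. Per the submitters' processing notes, FastQC, Trimmomatic, STAR 2.5.3a, RSEM 1.2.28 and the build mm10 were used. The deposited tables hold expected counts, which the authors' RSEM run estimated for 24848 genes, and TPM values, which the authors' run scaled by gene length and library total. FPKM columns were not used here.

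Expected counts were rounded to whole numbers. They were fitted in edgeR 4.0.16 (R 4.3.3): TMM scaling, the filterByExpr filter (13500 genes), 25 libraries in 8 group means that share 1 estimate of the spread, the quasi-likelihood test and Benjamini-Hochberg adjustment over all genes tested, called under 0.05. The 25 libraries held 12.4 to 18.5 M counts. With 4 libraries against 2, an exact permutation test of a single gene cannot go below 0.0667, so single genes were tested only in this fit. TPM gave levels between genes. Each SE was derived as the size of the log2 fold change over the square root of the quasi-likelihood F statistic. It thus restates the p-value, and is only approximate for genes near 0 in a tissue. Fold bounds against a group at 0 used a floor of 3 counts per library and cover counting error only. The script was tested on simulated data.

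The genes described are Tnfrsf1b and Foxp3, the 10 largest rises and 10 largest falls among called genes with a mean of at least 10 CPM in 1 tissue and no overlap of libraries, up to 3 called members per gene list by smallest p, and other members given as such. For the interactions they are the 5 largest differences each way among called genes with a mean of at least 10 CPM in 1 group, and any gene already described. Groups, members and the 42 lists were chosen with earlier results of these data known, and the genes given for the test between genotypes were picked by their p. Some genes that this rule takes in are not reported here. Replicate numbers were not used as pairs. The deviations of same-numbered CNS and dLN libraries from their group means correlated at -0.00587 and -0.00441. With 2 dLN libraries these values are not independent, and they cannot show whether the samples are paired. Alternatives were DESeq2 1.42.0 size factors and Wald test, limma 3.58.1 voom, other filters and sample sets, a replicate block and leaving out libraries. Promoters came from a RefSeq table of GRCm38.p6 and were matched by symbol.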

Additional observations from a re-analysis of the deposited data

Results flagged for a closer look

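In 5 of the 138 genes examined, 1 of the 4 CNS libraries lay apart from the other 3 by Dixon's criterion, which chance meets in about 1 group in 20. CNS replicate 2 held the high value for Ly6c1 (74.5 CPM), Slbp (271 CPM) and Anxa1 (303 CPM). Replicate 3 held the value that stood apart for Tcf7 (511 CPM) and Xcr1 (16.6 CPM).

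The tissue difference of icKO mice differed between Tconv and Treg cells, by the test of the interaction with an adjusted p under 0.05, in 22 of the genes given with an interaction. Above 0 on the log2 scale, Tconv minus Treg, were Il2ra (3.46), Il2rb (1.98), Socs2 (3.52), Cish (2.39), Tnfrsf1b (2.01), Mcm2 (1.64), Mcm7 (2.14), Prc1 (2.997), Slbp (1.34), H2-Q6 (16.96), Gen1 (11.88), Hspa1b (5.12), Fancd2 (5.005) and Tns2 (4.47). Below 0 were Foxp1 (-1.73), Ly6c1 (-3.70), Ldhb (-2.49), Ltf (-12.97), Procr (-10.27), Cd177 (-10.01), Apod (-9.57) and Fpr2 (-9.56). Values beyond 8 in size rest on groups at or near 0, where the fit's added count sets the size.

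The library labelled dLN icKO replicate 3, which was left out, held markers of other cells above the 2 dLN libraries used. Neutrophil markers summed to 3373 CPM of its total, against 1.65 to 4.05 CPM in the other dLN libraries. Monocyte and macrophage markers summed to 3004 CPM, against 144 to 195 CPM, B cell markers to 635 CPM, against 18.3 to 27.4 CPM, and astrocyte markers to 105 CPM, against 0 to 0.368 CPM.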

How the results depend on the processing

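Counts are given as higher and lower. For CNS against dLN in icKO Tconv cells, 1055 and 850 genes became 541 and 665 with all 26 libraries, 1727 and 1828 with limma voom, and 438 and 210 without the 5 libraries with disagreeing file names, of which 423 and 184 were among those called with all 25. The share higher among the genes called was 55.4% at first, 44.9% with all 26 libraries and 67.6% without the 5. Other scalings, filters, sample sets and DESeq2's Wald test stayed within 1.5 times. Leaving out 1 library gave 411 to 972 and 321 to 747. With all 26 libraries the median log2 fold change of all genes tested was 0.22 in place of 0, the median shift of single genes was 0.53, and Plin2, Aldh18a1 and Fcgr1 turned to -0.10, -0.035 and -2.80. The cause of these changes was not tested, and the library added is the one with 6005 genes. For icKO against Ctrl, 0 and 0 became 45 and 31 with DESeq2's Wald test, 5 and 19 with voom, 8 and 4 without the 5 libraries, 4 higher among Tconv libraries alone, 3 lower without a filter, 2 lower with a filter of 10 CPM, and 0 to 2 and 0 to 9 without 1 library. For Tconv against Treg, 542 and 576 became 75 and 191 with all 26 libraries, 828 and 913 with voom, 258 and 339 without the 5, and 176 to 583 and 215 to 532 without 1 library. Over the genes described and all alternatives, 2042 tissue values kept side and sign, 153 missed the threshold, 9 newly passed and 3 turned. With the replicate number as a block 1052 and 907 genes were called, of which 954 and 753 were called without it. Both correlations of deviations were near 0, which cannot show whether same-numbered samples came from the same mouse. With 2 dLN libraries, low transcripts are limited by depth, and a gene at 0 in them is below about 0.219 CPM.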
